A study of Rattus norvegicus with 20 samples.

Results

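Gangliosides are sialic acid-bearing glycolipids of the neuronal surface, and the B subunit of cholera toxin binds to one of them, GM1. The 9 genes described here make or break down these lipids: Ugcg, St3gal5, B4galnt1, St8sia1, B3galt4 and St3gal2 act in synthesis, and Neu1, Hexa and Glb1 in lysosomal breakdown. They were measured in cortical neurons that had been labelled with cholera toxin B tracers. Ugcg was chosen because its ratio of sprouting over non-sprouting neurons was high, so its ratios and levels are described with no test between groups or against 0. The other 8 genes were taken for their place in the pathway, with earlier results of these data known. Of 41012 probes on the array, 11 belong to these genes. The names in the files gave 10 of them, and the probe of St3gal2, which the files name Siat4b, was matched by its accession alone. Ugcg and Neu1 have 2 probes each and the other genes 1 each, and the brighter probe stood for the gene.

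Ganglioside synthesis starts when Ugcg, glucosylceramide synthase, puts a glucose on ceramide. Galactose is added next, and St3gal5 then attaches a sialic acid to give GM3. B4galnt1 and B3galt4 extend GM3 to GM2 and GM1, St8sia1 opens the branch of gangliosides with more sialic acids, and St3gal2 adds sialic acid to the outer galactose to give GD1a and GT1b, major gangliosides of the adult brain. In the lysosome, the sialidase Neu1, the hexosaminidase subunit Hexa and the galactosidase Glb1 take the sugars off again, and loss of Hexa or Glb1 causes storage of GM2 or GM1 in neurons.

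The rats were 2 months old and all had a stroke, so that no group without a stroke enters the comparisons. CTb-Alexa 488 was injected into cortex at the border of the infarct, and CTb-Alexa 647 went into the same place 7 days later in 5 animals (day 7) and 21 days later in another 5 animals (day 21). At 7 days after the second tracer, about 300 neurons labelled as sprouting and about 300 labelled as non-sprouting were cut out by laser from each animal. The labels do not say which tracer or tracers mark each cell type, and give no strain. RNA went through 2 rounds of amplification, and both cell types of an animal were hybridised together on 2 arrays with the dyes exchanged, which made 20 arrays. A ratio below is the log2 ratio of sprouting over non-sprouting neurons in 1 animal, the mean of its 2 arrays, and a level is the log2 signal of a cell type in an animal after normalisation. Signals of different probes were not set against each other. A higher ratio in such pooled cells can come from more RNA per cell or from more cells that hold it, and these cannot be told apart.

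Per array and channel, 40.5% to 94.6% of probes were well above background. The 40.5% belonged to the Cy3 channel of an array of day 21 replicate 3, and the next lowest channel had 66.6%. All 8 pan-neuronal markers looked for were measured, 7 of them well above background in every channel. Of the glutamatergic markers tested, Nrgn was above it in 100% of channels, Camk2a in 87.5% and Slc17a7, the vesicular glutamate transporter, in 62.5%. All 6 markers of GABAergic interneurons were above background in every channel. Both arrays of an animal correlated across genes at Pearson r from 0.33 to 0.73 in 9 animals. In day 21 replicate 4 this r was -0.36, so that its 2 arrays ran against each other. A dye label of this animal could be wrong, in which case the mean of its arrays cancels its ratios. This was not tested, and the labels were kept. The SD of its ratios over genes was 0.065 against 0.155 to 0.239 in the other animals. Precision is limited by having 5 animals a day: over 33089 genes the standard error of a day's mean ratio had a median of 0.052.

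Ugcg signal was higher in sprouting than in non-sprouting neurons in all 10 animals by its brighter probe, with dyes taken as labelled. At day 7 the ratios of replicates 1 to 5 were 0.45, 0.36, 0.43, 0.03 and 0.30, and at day 21 they were 0.22, 0.12, 0.49, 0.01 and 0.14. The arrays of day 21 replicate 4, the animal whose dye labels are in doubt, gave 0.07 and -0.05, so that its sign is not settled, and the other 9 animals were all above 0. Replicate 4 lay near 0 on both days, and day 21 replicate 3 was the highest of all. An array of day 21 replicate 3 had only 40.5% of probes above background in its non-sprouting channel. That array gave 0.53 for Ugcg, and the other array of the animal gave 0.45. The mean was 0.31 ± 0.17 (SD, n = 5) at day 7, a fold of 1.24, and 0.20 ± 0.18 (SD, n = 5) at day 21, a fold of 1.15. The values of both days overlapped over nearly their whole range. Ranked by mean ratio among 33089 genes, Ugcg stood at place 426 at day 7 and at place 1014 at day 21. Over all genes measured in every animal of a day, 3.55% were higher in all 5 animals at day 7 and 4.23% at day 21, and 0.343% were higher in all 10. These shares are given as background only, since Ugcg was picked on the same ratios.

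The size of the mean Ugcg ratio depended on the scaling and on the probe, while the sign of the mean was the same under every alternative run. Several alternatives could not move a day's mean of the brighter probe. These were outlier spots, the filters, the replicate and random blocks and leaving out an animal of the other day. Nor could scan day as a block move the day 7 mean. With each array centred on its median in place of loess, the curve fit that removes trends with spot brightness, the mean ratio of Ugcg was 0.16 at day 7 and 0.16 at day 21. The median over all genes was -0.005 at day 7 and 0.010 at day 21 under that centring, close to that after loess. Without day 21 replicate 3 the day 21 mean was 0.12, and without day 21 replicate 4 it was 0.24. The dimmer probe had ratios of 0.05, 0.07, 0.34, 0.10 and 0.32 at day 7 and of 0.06, 0.19, 0.04, -0.03 and -0.01 at day 21. Its means were 0.18 ± 0.14 (SD, n = 5) and 0.05 ± 0.09 (SD, n = 5), lower than those of the brighter probe on both days. Across the 10 animals the ratios of both probes correlated weakly (Pearson r = 0.28), and they had the same sign in 8 animals.

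The dye swap showed a further difference between the Ugcg probes. The brighter probe was higher for sprouting neurons on 18 of 20 arrays, on all 10 with sprouting neurons in Cy5 and on 8 of 10 with them in Cy3, with mean ratios of 0.29 and 0.22. The 2 exceptions were arrays of replicate 4, 1 from each day. The dimmer probe was higher on 14 of 20 arrays, on all 10 with sprouting neurons in Cy5 and on 4 of 10 with them in Cy3, with mean ratios of 0.19 and 0.04. Averaging both dyes of an animal removes a dye effect that is equal on both arrays.

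**Figure D1:**
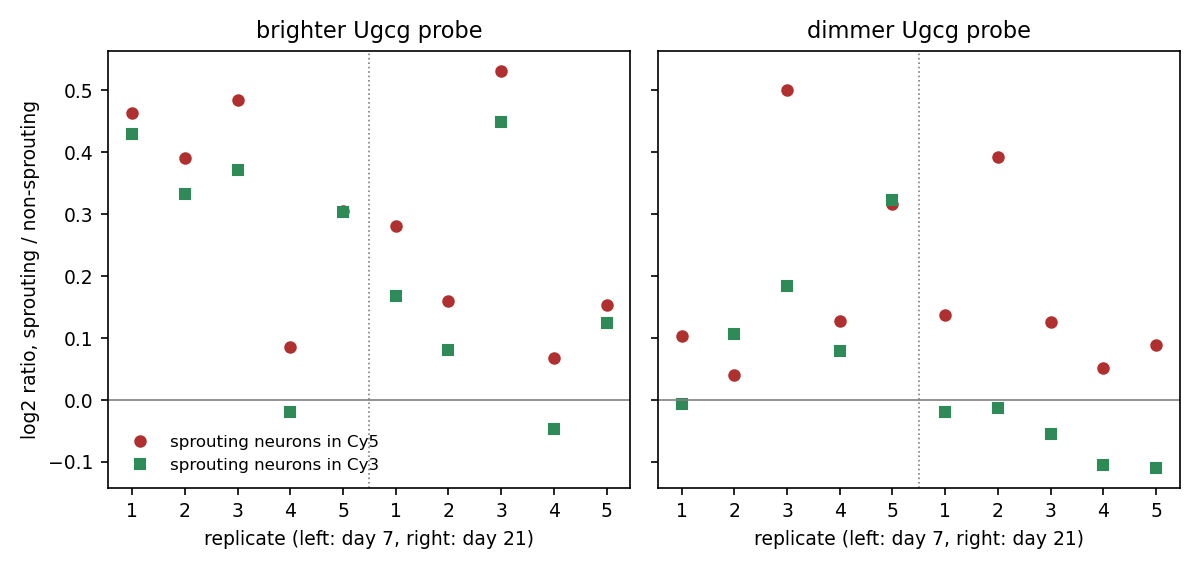
Log2 ratio of sprouting over non-sprouting neurons for both Ugcg probes on each of the 20 arrays (y axis) by replicate (x axis, day 7 on the left of the dotted line and day 21 on the right). Circles are arrays with sprouting neurons in Cy5 and squares arrays with them in Cy3. The brighter probe lies above 0 on 18 arrays and the dimmer probe on 14, and 6 squares of the dimmer probe lie below 0.

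The levels of Ugcg by its brighter probe ran from sprouting neurons at day 21 through those at day 7 to non-sprouting neurons at day 21 and at day 7. Sprouting neurons had a mean level of 11.08 ± 0.15 (SD, n = 5) at day 21 and 10.91 ± 0.20 (SD, n = 5) at day 7. Non-sprouting neurons had 10.88 ± 0.19 (SD, n = 5) at day 21 and 10.60 ± 0.32 (SD, n = 5) at day 7. The steps between neighbours in this order were smaller than the SD of the group with more spread, and all 4 groups overlapped. Day 7 replicate 1 had the lowest level in both cell types, 10.57 in sprouting and 10.13 in non-sprouting neurons. Day 21 replicate 2 had the highest in both, 11.29 and 11.17.

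None of the other 8 genes passed a Benjamini-Hochberg adjusted p of 0.05 in limma's test over all 33089 genes at day 7, where 1 gene passed (0.00302%), or at day 21, where no gene passed (0%). At day 7 adjusted p-values of these 8 lay between 0.53 and 0.94, and at day 21 between 0.84 and 0.999. None of the 8 had an unadjusted p under 0.05 either, against 9.48% of all genes at day 7 and 5.8% at day 21. At day 7 the mean ratio was above 0 for 4 of the 8 and below 0 for the other 4, with a median of -0.016 beside -0.005 over all genes. At day 21 it was above 0 for 2 and below 0 for 6, with a median of -0.045 beside -0.001 over all genes. Under median centring 3 of the 8 were above 0 at day 7 and 4 at day 21, and with scan day as a block 5 were above 0 at day 21. Without day 21 replicate 4, whose arrays ran against each other, none passed either, and the day 21 means were -0.14 for St3gal5, -0.11 for B4galnt1, -0.25 for St3gal2, -0.02 for B3galt4 and 0.05 for St8sia1. Those of Neu1, Hexa and Glb1 were 0.004, -0.08 and -0.06. The intervals below give the sizes of change that 5 animals a day leave possible.

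**Figure D2:**
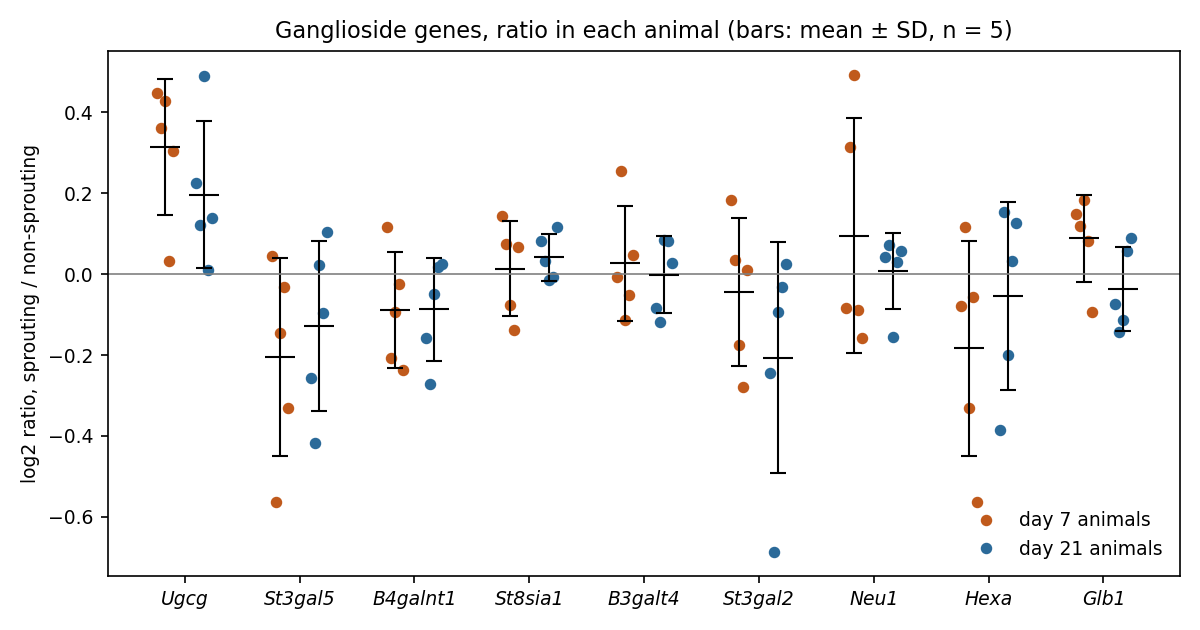
Log2 ratio of sprouting over non-sprouting neurons (y axis) for the 9 genes (x axis), with 1 point for each of the 5 day 7 and 5 day 21 animals and bars for the mean ± SD. All 10 Ugcg points, from its brighter probe, lie above 0, while the points of each of the other 8 genes lie on both sides of 0.

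St3gal5, the GM3 synthase that acts soon after Ugcg, had a mean ratio below 0 on both days, which passed no test. Its ratios were 0.05, -0.56, -0.15, -0.03 and -0.33 at day 7 and -0.26, -0.42, 0.02, -0.09 and 0.10 at day 21. Replicate 2 was the lowest animal on both days, though the replicate numbers of the days belong to different animals, and 3 of the 10 animals lay above 0. The mean was -0.21 ± 0.25 (SD, n = 5) at day 7, with a 95% interval from -0.41 to 0.0007 in the limma fit and an unadjusted p of 0.051 (adjusted p = 0.53). At day 21 the mean was -0.13 ± 0.21 (SD, n = 5), with an interval from -0.33 to 0.08 (adjusted p = 0.89). Under median centring in place of loess the day 7 mean was -0.39, with an unadjusted p of 0.027 and an adjusted p of 0.49 in limma's test. Leaving out day 7 replicate 2 moved it to -0.12, and leaving out day 21 replicate 2 moved the day 21 mean to -0.06.

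B4galnt1, which makes GM2 and GD2, followed St3gal5 from animal to animal. Its ratios were 0.12, -0.21, -0.09, -0.02 and -0.24 at day 7 and -0.16, -0.27, -0.05, 0.02 and 0.03 at day 21. The animals furthest below 0 were among those with the lowest St3gal5 ratios, and 3 of 10 lay above 0. The mean was -0.09 ± 0.14 (SD, n = 5) at day 7 and -0.09 ± 0.13 (SD, n = 5) at day 21. In limma's test the adjusted p was 0.63 and 0.87, and the 95% intervals ran from -0.22 to 0.04 on both days.

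The ratios of B4galnt1 and St3gal5 correlated over the 10 animals with Pearson r = 0.88 (two-sided permutation test with 1e+05 resamples, p = 0.00098) and Spearman rho = 0.90 (permutation p = 0.00072). Among the 36 pairs that the 9 genes form, 8 of them with Ugcg, this was the only pair to pass after Benjamini-Hochberg adjustment over the pairs (permutation test, adjusted p = 0.035 for Pearson and 0.026 for Spearman), and the other 35 had adjusted p-values of 0.70 or more for Pearson. Without the 2 animals farthest from the median of B4galnt1, r was 0.87 over 8 animals, and within a day it was 0.88 at day 7 and 0.92 at day 21, each over 5 animals. Within a single day other pairs ran higher. St3gal2 and St8sia1 had r of 0.99 at day 7 and 0.09 at day 21, and B4galnt1 and St3gal2 had 0.14 and 0.96. Batches of scanning held too few animals for a value of their own. Leaving out 1 animal at a time gave r from 0.86 to 0.92. The pair was singled out after its values were seen, and both ratios of an animal come from the same arrays. Compared with every gene that has a current symbol and was measured in all 10 animals, 13883 in number, St3gal5 stood at place 8 in likeness to B4galnt1 and B4galnt1 at place 9 in likeness to St3gal5.

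**Figure D3:**
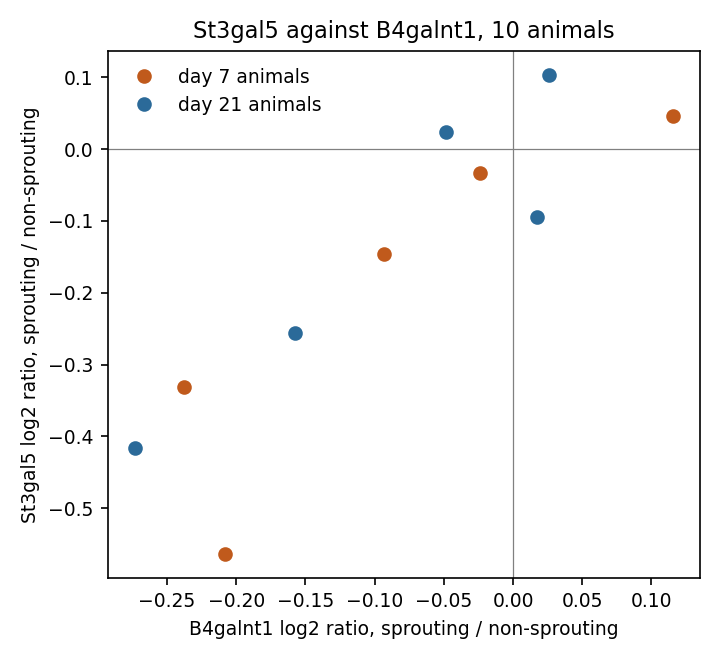
St3gal5 ratio (y axis) against B4galnt1 ratio (x axis), both log2 of sprouting over non-sprouting neurons, with 1 point per animal for 5 day 7 and 5 day 21 animals. Points of both days run along the same rising band, with r = 0.88 over the 10 animals.

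St3gal2 had ratios of 0.18, 0.03, -0.17, -0.28 and 0.01 at day 7 and of -0.24, -0.69, -0.09, -0.03 and 0.02 at day 21. Day 21 replicate 2 was the lowest of the 10 animals by a wide margin. The mean was -0.04 ± 0.18 (SD, n = 5) at day 7 (adjusted p = 0.90 in limma's test) and -0.21 ± 0.29 (SD, n = 5) at day 21, where the 95% interval ran from -0.42 to 0.01 (unadjusted p = 0.060, adjusted p = 0.84). Without day 21 replicate 2 the day 21 mean was -0.09, and without day 7 replicate 4 the day 7 mean turned to 0.014. Among the day 21 animals, St3gal2, St3gal5 and B4galnt1 were all lowest in this one, whose Ugcg ratio was 0.12.

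B3galt4, the enzyme that completes GM1, the ganglioside bound by the tracer, had ratios spread around 0. They were -0.01, 0.26, -0.11, -0.05 and 0.05 at day 7 and -0.08, -0.12, 0.08, 0.08 and 0.03 at day 21. Its mean was 0.03 ± 0.14 (SD, n = 5) at day 7, with a 95% interval from -0.09 to 0.14, and -0.0009 ± 0.095 (SD, n = 5) at day 21, with an interval from -0.12 to 0.11 (limma, adjusted p = 0.89 and 0.999). Day 7 replicate 2 alone carried the day 7 sign, since the mean without it was -0.03, and median centring also gave values of the other sign, -0.007 at day 7 and 0.007 at day 21. Its 2 dyes differed, with a mean ratio of -0.09 on arrays with sprouting neurons in Cy5 and 0.12 on those with them in Cy3. Ratios of St8sia1, the GD3 synthase, were 0.14, 0.07, -0.08, -0.14 and 0.07 at day 7 and 0.08, 0.03, -0.02, -0.01 and 0.12 at day 21, the narrowest spread of the 9 genes at day 21. Its means were 0.01 ± 0.12 (SD, n = 5) and 0.04 ± 0.06 (SD, n = 5), with adjusted p-values of 0.94 and 0.92 in limma's test, and leaving out day 7 replicate 1 turned the day 7 mean to -0.02. This probe was well above background in only 27 of 40 channels, so its ratios are those of a dim spot.

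The 3 breakdown genes also had animals on both sides of 0 on each day. Neu1 had ratios of -0.08, 0.31, 0.49, -0.09 and -0.16 at day 7 and of 0.04, 0.07, -0.16, 0.03 and 0.06 at day 21. Replicates 2 and 3 of day 7 were high and the other 3 day 7 animals low, and the second Neu1 probe gave nearly the same values over the 10 animals (Pearson r = 0.98). The mean of the standing probe was 0.10 ± 0.29 (SD, n = 5) at day 7 and 0.009 ± 0.094 (SD, n = 5) at day 21, with adjusted p-values of 0.74 and 0.99 in limma's test. Without day 7 replicate 3 the day 7 mean was -0.004. At day 21 the second probe had a mean of the other sign, -0.007 ± 0.099 (SD, n = 5).

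Hexa ratios were -0.08, 0.12, -0.33, -0.06 and -0.56 at day 7 and -0.38, 0.15, -0.20, 0.03 and 0.13 at day 21. Replicate 5 of day 7 and replicate 1 of day 21 were the lowest of their days. The mean was -0.18 ± 0.27 (SD, n = 5) at day 7, with a 95% interval from -0.41 to 0.04, and -0.05 ± 0.23 (SD, n = 5) at day 21, with an interval from -0.28 to 0.17 (limma, adjusted p = 0.58 and 0.97). With the scanner's processed signals in place of the mean signals the day 7 mean was -0.64 (limma, adjusted p = 0.93), and without day 7 replicate 5 it was -0.09. Without day 21 replicate 1 the day 21 mean was 0.03, and with scan day as a block it was 0.12.

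Glb1 ratios were 0.15, 0.12, 0.18, 0.08 and -0.09 at day 7 and -0.07, -0.14, -0.11, 0.06 and 0.09 at day 21. At day 7 all animals but replicate 5 lay above 0, whereas at day 21 replicates 4 and 5 did. The mean was 0.09 ± 0.11 (SD, n = 5) at day 7 and -0.04 ± 0.10 (SD, n = 5) at day 21, with adjusted p-values of 0.57 and 0.95 in limma's test, and the day 21 mean was 0.02 under median centring. The difference between the days had an unadjusted p of 0.090 and an adjusted p of 0.94 in the same fit.

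Day 21 differed from day 7 in none of the 8 genes by limma's test. For the change of the ratio, adjusted p-values lay between 0.94 and 0.999, and 0 of 8 had an unadjusted p under 0.05, against 4.05% of all genes. For the level in sprouting neurons they lay between 0.61 and 0.87, and in non-sprouting neurons between 0.61 and 0.998. Again 0 of 8 had an unadjusted p under 0.05, against 8.83% and 8.97% of all genes, and no gene on the array passed the adjusted threshold in any of these 3 comparisons (0%). Animals of a group differed widely in level for several genes. Hexa, for example, ran from 7.23 through a median of 8.01 to 8.86 in sprouting neurons at day 21 and from 7.11 through 8.10 to 9.06 in non-sprouting neurons. Neu1 ran from 7.49 through 8.56 to 8.60 in sprouting neurons at day 7. The 4 groups overlapped in each of these genes.

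The order of the group means differed from gene to gene, and neighbours in each order lay closer than the larger of their SDs except for St8sia1 in non-sprouting neurons at day 7 and sprouting neurons at day 21. St3gal5 ran from 12.22 ± 0.33 in non-sprouting neurons at day 21 through 12.09 ± 0.22 in sprouting neurons at day 21 and 12.05 ± 0.21 in non-sprouting neurons at day 7 to 11.85 ± 0.32 in sprouting neurons at day 7 (SD, n = 5 each). B4galnt1 followed the same order, from 9.19 ± 0.46 to 8.96 ± 0.46. St3gal2 ran from 10.67 ± 0.29 in non-sprouting neurons at day 21 through 10.65 ± 0.17 and 10.60 ± 0.13 in non-sprouting and sprouting neurons at day 7 to 10.47 ± 0.41 in sprouting neurons at day 21. B3galt4 had 7.37 ± 0.34 and 7.35 ± 0.32 in sprouting and non-sprouting neurons at day 7 and 7.16 ± 0.17 and 7.16 ± 0.20 at day 21. St8sia1 had 6.29 ± 0.13 and 6.27 ± 0.08 at day 7 and 6.18 ± 0.05 and 6.14 ± 0.09 at day 21, in the same sequence of cell types. Among the breakdown genes, Neu1 had 8.20 ± 0.52 and 8.10 ± 0.38 at day 7 and 8.04 ± 0.37 and 8.03 ± 0.42 at day 21. Glb1 had 7.08 ± 0.33 and 7.00 ± 0.24 at day 7, then 6.88 ± 0.23 in non-sprouting and 6.85 ± 0.22 in sprouting neurons at day 21. Hexa was highest in non-sprouting neurons, 8.09 ± 0.69 at day 21 and 8.08 ± 0.44 at day 7, followed by sprouting neurons with 8.03 ± 0.62 at day 21 and 7.90 ± 0.52 at day 7. Each value here compares groups for a single probe.

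**Figure D4:**
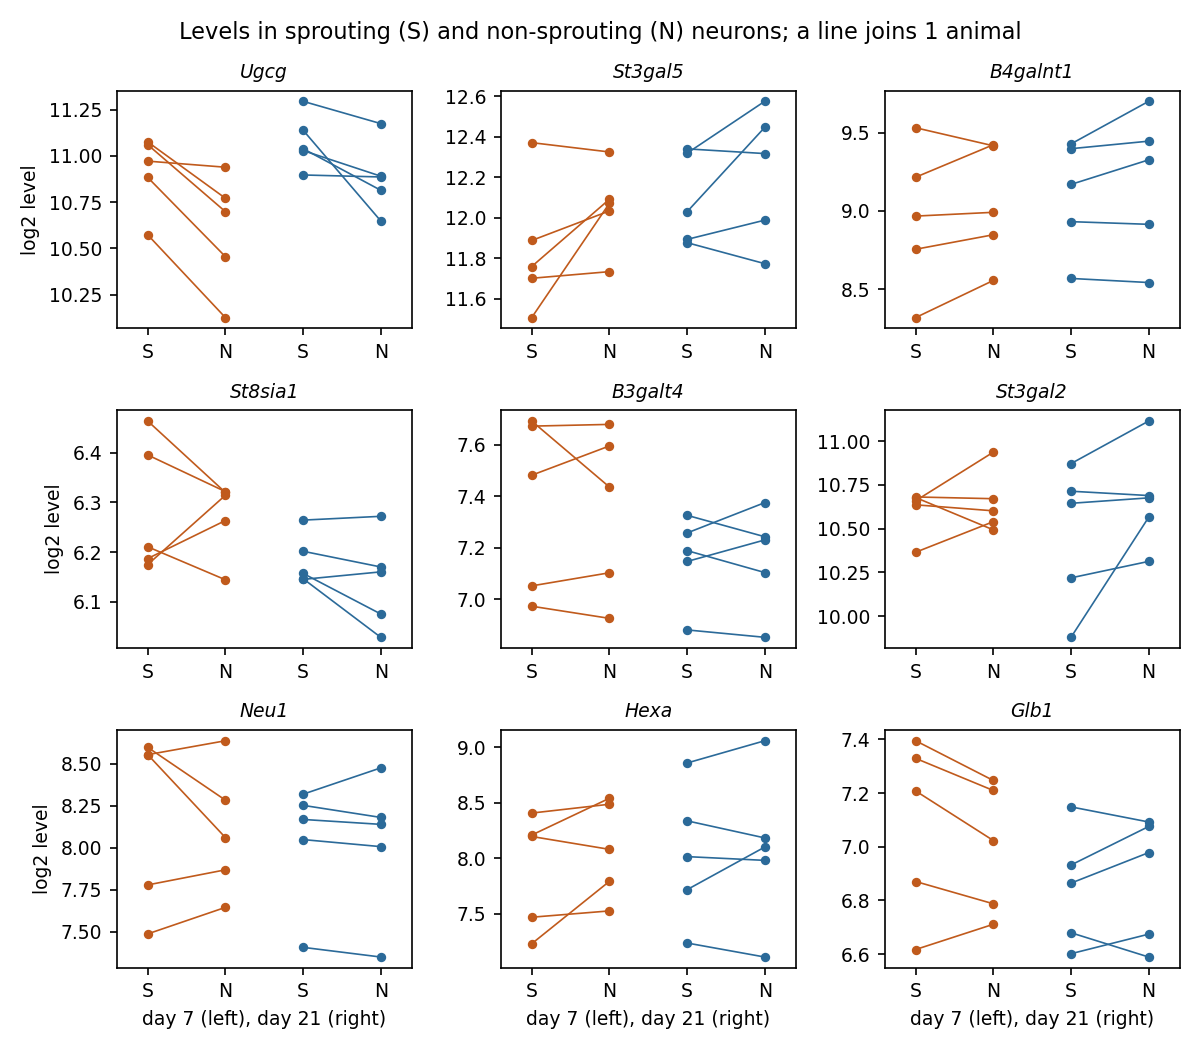
Normalised log2 level (y axis, 1 panel and scale per gene) in sprouting (S) and non-sprouting (N) neurons, with day 7 on the left and day 21 on the right, and a line joining both cell types of an animal. Every line of the brighter Ugcg probe, the probe drawn, falls from S to N, whereas lines of the other genes run both ways, and day 7 and day 21 overlap. By the dimmer Ugcg probe, not drawn, 2 day 21 animals ran the other way.

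Beyond the 9 genes, 53 other genes of ceramide and ganglioside metabolism were looked for and 45 were measured well enough to test. None passed the adjusted threshold on either day. At day 7, 30 of the 45 had a mean ratio above 0 and 15 below 0, and the median was 0.018 beside -0.005 over all genes. With median centring in place of loess 21 were above 0 and 24 below, with a median of -0.026. After loess 5 higher and 1 lower had an unadjusted p under 0.05 in limma's test, against 9.48% of all genes. At day 21 the ratio was above 0 for 20 and below 0 for 25 (median -0.004), and 1 gene had an unadjusted p under 0.05, against 5.8% of all genes. Over all genes 46.5% had a ratio above 0 at day 7 and 49.0% at day 21.

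By role, the 11 genes measured for the ceramide base included 7 above 0 at day 7 and 4 at day 21. Lactosylceramide synthases and later ganglioside enzymes had 5 of 8 above 0 at day 7 and 3 at day 21. The group of enzymes that lead elsewhere had 4 of 5 and 3. It held Ugt8, Sgms1, Sgms2 and Cerk, which turn ceramide to galactosylceramide, sphingomyelin or ceramide phosphate, and A4galt, which acts on lactosylceramide. Genes of sugar supply and lipid transfer had 4 of 6 above 0 at day 7 and 3 at day 21. The breakdown genes had 10 of 15 above 0 at day 7 and 7 at day 21 (7 of 15 on both days under median centring). Median ratios of all 5 groups lay between 0.010 and 0.053 at day 7 and between -0.015 and 0.021 at day 21. Under median centring 4 of the 5 day 7 medians were below 0: -0.085 for supply and transfer, -0.032 for breakdown, -0.026 for the ceramide base and -0.017 for lactosylceramide and later enzymes. Then 4 of 11 genes of the ceramide base, 4 of 8 of the later enzymes and 2 of 6 of supply and transfer were above 0 at day 7.

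Psap, the precursor of the saposins that present glycolipids to lysosomal enzymes, had the highest mean day 7 ratio of these 45 genes after loess. Its ratios were -0.16, 0.14, 0.49, 0.34 and 0.90 at day 7 and 0.18, 0.39, 0.04, -0.02 and 0.59 at day 21. The mean was 0.34 ± 0.39 (SD, n = 5) at day 7 and 0.24 ± 0.25 (SD, n = 5) at day 21, above 0 in 4 of 5 animals on each day (limma, unadjusted p = 0.027 and 0.11, adjusted p = 0.50 and 0.85). Leaving out day 7 replicate 5 moved the day 7 mean to 0.20. Gm2a, the activator that lifts GM2 to the hexosaminidase, had a day 7 mean of 0.16 ± 0.21 (SD, n = 5; unadjusted p = 0.040, adjusted p = 0.51 in limma's test). Replicate 4, at 0.50, held much of it, and the mean without that animal was 0.07. The Gm2a probe was not well above background in every channel.

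Kdsr and Cers1 of ceramide synthesis and Sgms2, a sphingomyelin synthase, had day 7 means of 0.13 ± 0.17, 0.07 ± 0.06 and 0.12 ± 0.14 (SD, n = 5 each), each with 4 of 5 animals above 0. Their unadjusted p-values in limma's test were 0.049, 0.026 and 0.034, with adjusted p-values of 0.53, 0.50 and 0.51. For Kdsr the sign turned under median centring, to -0.03. Neu4, another sialidase, was below 0 in all 5 day 7 animals, as were 5.1% of all genes, with a mean of -0.08 ± 0.05 (SD, n = 5; limma, unadjusted p = 0.016, adjusted p = 0.48), and had a mean of 0.02 ± 0.05 (SD, n = 5) at day 21. Its difference between the days was 0.11 (limma, unadjusted p = 0.025, adjusted p = 0.94), and with the scanner's processed signals that difference had the other sign, -0.07. Cers3, a ceramide synthase, was the gene with an unadjusted p under 0.05 at day 21, with a mean of 0.15 ± 0.21 (SD, n = 5; unadjusted p = 0.032, adjusted p = 0.84 in limma's test). Its SD at day 7 was only 0.03, and the fit pools the spread of both days. Day 21 replicate 2, at 0.50, was far above the other 4 animals, and without it the mean was 0.07. The probes of Cers1, Sgms2, Neu4 and Cers3 were not well above background in every channel.

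**Figure D5:**
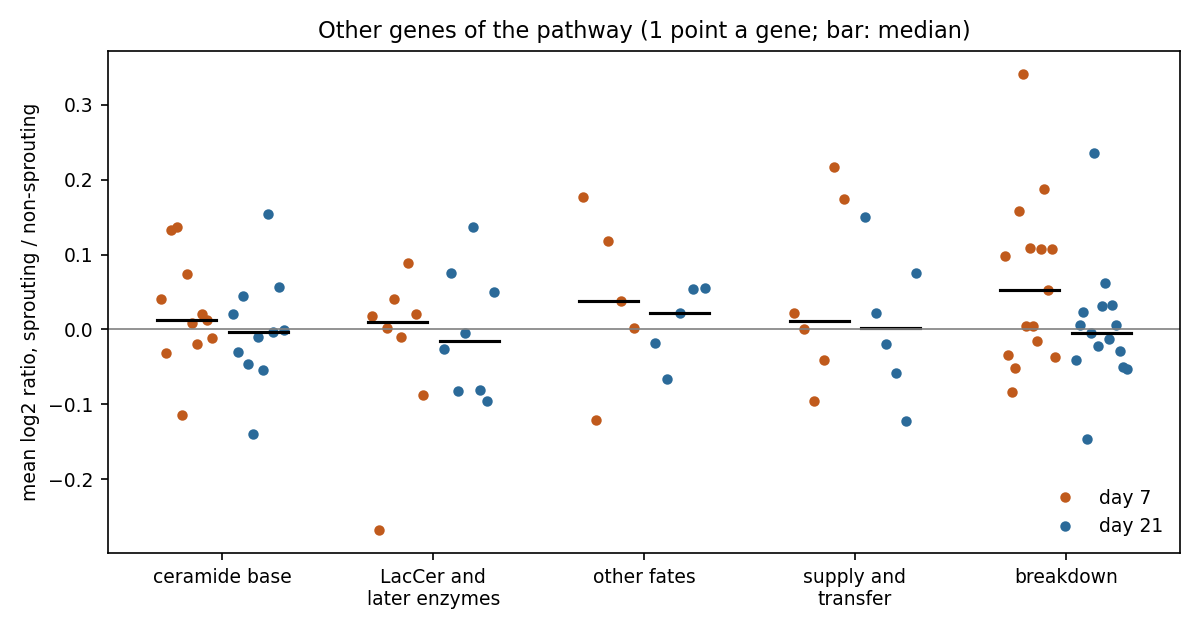
Mean log2 ratio of sprouting over non-sprouting neurons (y axis) for 45 other genes of the pathway in 5 groups (x axis), 1 point per gene and day, with bars for the median of a group. Medians of the 5 groups lie between 0.010 and 0.053 at day 7 and between -0.015 and 0.021 at day 21, and Psap at 0.34 is the highest day 7 point.

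Markers of other cells were measured beside these genes. All 8 oligodendrocyte markers, genes of a cell type rich in galactolipids, had a mean ratio above 0 at day 7 and 2 of 8 at day 21, with list medians of 0.31 and -0.02, and none passed the adjusted threshold. Under median centring 7 of 8 were above 0 at day 7. Their median by animal was -0.54, 0.21, 0.08, 0.85 and 0.94 at day 7 and 0.63, -0.27, -0.35, 0.01 and -0.17 at day 21. The summed linear signal of the 8 markers ran from 34188.5 to 73494 in sprouting and from 36788 to 69635 in non-sprouting neurons at day 7. At day 21 it ran from 11501 to 49147 and from 12775 to 42936. No marker of the list was at background throughout, and the least often detected, Mag, was well above it in 90% of channels. Their part in the results was not tested.

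Of 10 further lysosomal genes, 9 had a mean ratio above 0 at day 7 and 1 at day 21, with medians of 0.10 and -0.09 and none past the adjusted threshold. Under median centring 5 of the 10 were above 0 at day 7, with a median of -0.01. Their median by animal was -0.10, 0.23, 0.11, 0.13 and 0.11 at day 7 and 0.008, -0.27, -0.09, -0.04 and 0.06 at day 21. The summed signal of the 10 genes ran from 36033 to 47879 in sprouting and from 38364 to 45143 in non-sprouting neurons at day 7, and from 36725 to 45320 and from 36871 to 44798 at day 21. Microglial markers had 5 of 8 above 0 at day 7 and 2 of 8 at day 21, and astrocyte markers 3 of 7 and 1 of 7. Under median centring 2 of 8 microglial markers were above 0 at day 7. Whether these lists bear on the breakdown genes was not tested.

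GABAergic interneuron markers had 4 of 6 mean ratios above 0 on each day, with medians of 0.07 and 0.09 and none past the adjusted threshold. The markers were split. Gad1, Gad2, Slc32a1 and Pvalb ran from 0.05 to 0.49 at day 7 and from 0.07 to 0.36 at day 21. Vip (-0.93 at day 7 and -0.27 at day 21) and Sst (-0.22 and -0.49) were below 0. Under median centring 1 of 6 was above 0 at day 7. Their median by animal was -0.10, 0.05, 0.16, 0.03 and 0.16 at day 7 and -0.12, 0.51, 0.18, -0.004 and 0.01 at day 21. The highest, at 0.51, was day 21 replicate 2, the animal with the lowest day 21 ratios of St3gal2, St3gal5 and B4galnt1. That animal also had the widest spread of ratios over genes, with an SD of 0.239. Day 7 replicate 2, with the lowest St3gal5 ratio of all animals (-0.56), had a median of 0.05. The summed signal of the 6 markers ran from 15047 to 26238 in sprouting and from 15020 to 29552 in non-sprouting neurons at day 7, and from 14287 to 30468 and from 14381 to 30879 at day 21. Of the 8 pan-neuronal markers, 5 had a mean ratio above 0 at day 7 and 2 at day 21. Their medians were 0.11 and -0.05, and none passed the adjusted threshold. Under median centring 3 of 8 were above 0 at day 7. Map2 (0.54 at day 7 and 0.29 at day 21) and Syt1 (0.39 and 0.46) had higher means than Ugcg on both days, while Rbfox3 had -0.05 and -0.26. The part of either list in the ratios of these genes was not tested.

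The genes whose ratios were most like those of Ugcg over the 10 animals, among 13883 compared, were Samd8 (Pearson r = 0.94), Ndufb6 (0.90), Sfxn4 (0.88), Vti1a (0.88) and Shcbp1l (0.87). Samd8 encodes a ceramide phosphoethanolamine synthase of the endoplasmic reticulum and Ndufb6 a subunit of respiratory complex I. Their mean ratios were smaller than that of Ugcg. Samd8 had 0.07 ± 0.10 (SD, n = 5) at day 7 and -0.001 ± 0.095 (SD, n = 5) at day 21, and Ndufb6 had 0.07 ± 0.08 (SD, n = 5) and -0.04 ± 0.16 (SD, n = 5). The ratios that ran most against Ugcg were those of Tmem125 (r = -0.87), Cbll1 (-0.87) and Nkpd1 (-0.86). Of the other 8 ganglioside genes, St3gal2 was the most like Ugcg with r = 0.40, at place 1702, and Hexa the least with r = -0.40. B4galnt1 and St3gal5 had r of 0.006 and -0.01 with Ugcg. These are descriptions over 10 animals that share arrays, and the highest of 13883 values is high by its selection.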

How the data were processed

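Per the file headers, spots were quantified in Agilent Feature Extraction 9.1.3.1, and each spot has an intensity (mean signal) and a local background in Cy5 and Cy3. The authors also deposited log2 ratios whose method is not given in the sources used here. Their 20 ratio columns correlated with the own array at r from 0.987 to 0.9996, with medians from 0.002 to 0.013, and served as an alternative. Another 20 columns were not used.

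Signals were corrected with normexp (offset 50) and normalised by loess within arrays (limma 3.58.1, R 4.3.3), with control spots at weight 0 and outlier spots left out. Swapped arrays had their sign turned, and the mean of an animal's pair of arrays was its value. Of 41012 probes 37343 were kept: those above background on a share of 0.5 or more of the arrays in a cell type and day, and measured in at least 3 animals per day. Taking each gene's brightest probe gave 33089 genes, of which 31816 were measured in all 10 animals. Names were updated through the RefSeq table of GRCr8, used for names only.

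Ratios were fitted with lmFit and eBayes, with a mean per day over the 10 animals. Both days share the spread between animals in this fit, so a p-value does not rest on the SD of its own day alone. Levels between days were fitted within a cell type after Aquantile normalisation, with 5 against 5 animals. Tests were two-sided, with Benjamini-Hochberg adjustment over all genes and a threshold of 0.05. An exact test over 5 animals cannot go below 0.0625 and was not used. The fit was tested on simulated data. Alternatives were the background correction, processed signals, centring, scaling, deposited ratios, filters, probe averaging, blocks and leaving out each animal.

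The 9 genes and all lists were chosen with earlier results of these data known. Named were all 9 genes, the other pathway genes with an unadjusted p under 0.05 in a ratio comparison (up to 6 by smallest p), and the 5 genes most and 3 genes least like Ugcg.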

Additional observations from a re-analysis of the deposited data

Results flagged for a closer look

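Among the 66 groups of 5 animals examined for a single animal far from the rest, 2 had one, and chance gives about 1 in 20 groups. The Neu1 ratio of day 21 replicate 3 was -0.157, while the other 4 day 21 animals lay between 0.029 and 0.072. The St3gal2 level in sprouting neurons of day 7 replicate 3 was 10.365, while the other 4 animals lay between 10.64 and 10.68, and the ratio of that animal was -0.17.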

How the results depend on the processing

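No tested gene of the 8 passed in any comparison under the alternatives run for it. The stricter filter left 4 of the 8, and median centring, scaling, deposited ratios, outlier spots, that filter and the random block were run for the 3 ratio comparisons alone. The Ugcg ratio stayed above 0, from 0.16 to 0.39 at day 7 and from 0.12 to 0.25 at day 21, though several alternatives could not move it. Over all genes, the count that passed at day 7 went from 1 to 0 with processed signals, median centring, the mean of all probes, the stricter filter or scan day as a block, and to 402 with 20 arrays and the animal as a random block. That last fit gave 4 genes for the difference of the days. Replicate numbers of the days belong to separate animals and do not pair them. Same-numbered animals correlated from -0.196 to 0.001 and none best with its own number, and with the replicate number as a block 0 genes passed at day 7. Leaving out 1 animal gave 0 to 1 genes at day 7 and 0 in the other 4 comparisons. Some signs turned, most of them for means near 0. Exceptions were Kdsr (0.13 after loess) and the Neu4 difference (0.11). At day 21, Neu1 was -0.011 without background subtraction and -0.0067 under the stricter filter, where its other probe stands. B3galt4 was 0.0074 under median centring, 0.0045 when scaled between arrays and 0.066 with scan day as a block, which also gave 0.12 for Hexa and 0.0075 for Glb1. Median centring gave 0.022 for Glb1 at day 21 and -0.0074 for B3galt4 and -0.026 for Kdsr at day 7, and processed signals -0.066 for the Neu4 difference. Leaving out an animal gave ranges across 0 at day 7 for St8sia1 (-0.019 to 0.052), B3galt4 (-0.031 to 0.061), Neu1 (-0.0041 to 0.16) and St3gal2 (-0.10 to 0.014). At day 21 it did so for B3galt4 (-0.022 to 0.028), Hexa (-0.11 to 0.028) and Neu1 (-0.0070 to 0.050). The cause was not tested. The correlation of B4galnt1 and St3gal5 lay between 0.857 and 0.953 under 5 scalings and from 0.859 to 0.922 without 1 animal, alternatives chosen after seeing the data. Dim spots limit St8sia1.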
